A study of Mus musculus with 6 samples.

Results

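H3K27ac, the acetylation of lysine 27 on histone H3 that marks active promoters and enhancers, was examined at 8 genes of the Krüppel-like factor (KLF) family in mouse retina: Klf2, Klf4, Klf6, Klf7, Klf9, Klf10, Klf13 and Klf15. The genes were chosen by name, as family members known for roles in axon growth or in the response to stress, and make up 8 of the 21938 protein-coding genes of the GENCODE annotation used (GRCm38). For each gene, peaks were collected within 2.5 kb of any transcription start site (TSS) and over the gene body with 20 kb on either side, called the window. The data were 6 peak lists, each from a single retina of a wild-type (WT) mouse that was 3 months old at its first pressure elevation. The 4xIOP group held 3 retinas from eyes taken to an intraocular pressure (IOP) of 30 mmHg for 1 h, 4 times at intervals of 2 weeks. The control group held 3 retinas from contralateral eyes, which were left untreated. All retinas were collected on day 2 after the 4th elevation, and whole retina was used, so that every retinal cell type is mixed in each list. The treatment protocol given with every sample also describes injection of dasatinib (a kinase inhibitor used to remove senescent cells) or of vehicle, and the titles and treatment labels of these 6 samples name neither, so whether these mice were injected is not known here.

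In 4 of the 6 samples (replicates 1 and 2 of both groups), the name carried by the deposited list is that of the other group. In both samples with replicate number 3, the name and the label match. Groups were taken from the labels and no sample was moved, so each direction below holds for the retinas as labelled, and values from replicate 3 alone are given where they bear on a result.

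KLF proteins are zinc-finger transcription factors that bind GC-rich and CACCC sequences in promoters. Within the family, KLF6 and KLF7 favour the growth of axons in central neurons, whereas KLF4 and KLF9 hold it back in retinal ganglion cells, the neurons whose axons form the optic nerve. KLF9, KLF10 and KLF13 repress their targets through the SIN3A corepressor. Several family members are also induced from outside the cell: Klf2 and Klf4 by blood flow over endothelium, Klf9 by thyroid hormone and glucocorticoids, Klf10 by TGF-β, and Klf15 by glucocorticoids.

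The lists held 16195 to 36509 peaks on chromosomes 1 to 19, X and Y. The longest list was that of control replicate 3, which alone provided 76.3% of the 14954 regions found in a single list. Depth was recovered from the deposited values: the mean background was 87.4 to 173 fragments per 10 kb. In a comparison of promoters marked in all 6 lists, the median level (fragments stacked at the summit divided by the mean background of that list) ranged from 10.9 in control replicate 2 to 28.8 in control replicate 3. Of 8 photoreceptor genes, 7 were marked in all 6 lists and 1 in some. Of 8 ganglion cell markers, 0 were marked in all lists and 2 in some (Rbpms and Thy1). Endothelial, pigment epithelial and lens and cornea markers were near 0, each list of 8 having 1 gene marked in some lists and 7 in none. Fewer cells of a type and less of the mark per cell cannot be told apart in bulk tissue.

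The sequences just upstream of the start sites are shown first for genes that differ most in their marking: Klf6 and Klf7, whose promoters carried the highest mean levels, Klf9, whose mark within 2.5 kb lay almost wholly downstream of the start, Klf15, marked weakly and in 4 lists, and Klf4, marked in none. They are RefSeq promoter sequences (GRCm38.p6), found for 7 of the 8 genes, and are written 5′ to 3′ on the strand of the gene, without bases of annotated exons. Capitals mark 4 motifs, a CACCC box, a GC box, a CCAAT box and an AP-1 site, searched on both strands, and their letters are spelled out with the counts after the sequences. Where matches overlap, as in the GC boxes of Klf4, the capitals run together.
Klf6, chr13:5861239-5861481, plus strand: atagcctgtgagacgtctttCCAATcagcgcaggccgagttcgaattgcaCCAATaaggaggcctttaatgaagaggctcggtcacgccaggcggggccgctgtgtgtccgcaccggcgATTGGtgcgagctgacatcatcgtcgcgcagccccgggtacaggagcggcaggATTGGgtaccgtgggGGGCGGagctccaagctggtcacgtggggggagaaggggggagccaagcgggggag
Klf7, chr1:64121492-64121639, minus strand: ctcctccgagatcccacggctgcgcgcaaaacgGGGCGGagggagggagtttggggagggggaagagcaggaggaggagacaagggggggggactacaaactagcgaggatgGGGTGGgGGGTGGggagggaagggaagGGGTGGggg
Klf9, chr19:23140976-23141225, plus strand: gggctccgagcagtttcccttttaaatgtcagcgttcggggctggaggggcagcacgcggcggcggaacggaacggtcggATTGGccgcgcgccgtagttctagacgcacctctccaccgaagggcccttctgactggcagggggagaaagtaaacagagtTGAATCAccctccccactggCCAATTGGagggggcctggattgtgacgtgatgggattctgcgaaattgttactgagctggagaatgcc
Klf15, chr6:90462326-90462575, plus strand: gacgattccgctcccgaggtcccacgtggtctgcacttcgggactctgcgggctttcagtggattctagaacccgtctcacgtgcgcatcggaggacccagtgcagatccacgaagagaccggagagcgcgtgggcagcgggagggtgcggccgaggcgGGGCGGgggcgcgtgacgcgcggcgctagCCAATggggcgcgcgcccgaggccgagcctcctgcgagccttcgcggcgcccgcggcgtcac
Klf4, chr4:55532476-55532725, minus strand: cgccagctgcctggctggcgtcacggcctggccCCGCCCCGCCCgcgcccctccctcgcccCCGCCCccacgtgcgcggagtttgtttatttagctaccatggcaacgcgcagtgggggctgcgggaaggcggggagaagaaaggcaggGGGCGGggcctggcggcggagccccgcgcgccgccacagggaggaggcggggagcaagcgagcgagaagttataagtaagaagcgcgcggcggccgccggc

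Within 250 bases upstream, GC boxes, searched as GGGCGG, were found in 6 of the 7 genes and in 32.7% of all 32851 RefSeq promoters. Klf4 had 4 matches, Klf13 had 3 and Klf2 had 2, while Klf9 had none. CCAAT boxes, searched by the letters of the name, were found in 4 of the 7 genes against 33.8% of all promoters, with 4 matches in Klf6 and 3 in Klf9. CACCC boxes, the kind of site that KLF proteins themselves bind, were searched as CCACCC and found in Klf2, Klf7 and Klf13 (3 of 7, against 28.1% of all promoters), and Klf7 had 3 of them. The AP-1 letters, TGANTCA, were present in Klf9 alone among the 7 genes, 83 bases upstream of its RefSeq start, and in 6.75% of all promoters. Further motifs gave 0 of the 7 genes each. The letters TATAAA of the promoter element that binds TBP were found in 12.4% of all promoters. The MEF2 core TATTTATA was found in 1.56%. The cAMP response element TGACGTCA was found in 1.55%. These matches describe the letters of the window only.

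All 7 upstream sequences were rich in CpG, the dinucleotide that gathers in the promoters of widely used genes. The ratio of observed to expected CpG was 1.15 in Klf15, 0.941 in Klf4, 0.915 in Klf2, 0.858 in Klf6, 0.831 in Klf9, 0.762 in Klf13 and 0.752 in Klf7, against a median of 0.373 over all promoters. Among protein-coding genes in the same table, the median ratio was 0.792 for those with a promoter peak in all 6 lists and 0.199 for those with a promoter peak in none. Klf4, with no peak, thus had a ratio above the median of the marked genes. Of the 4293 genes with a ratio of at least 0.75, 8.20% had a promoter peak in no list.

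**Figure D1:**
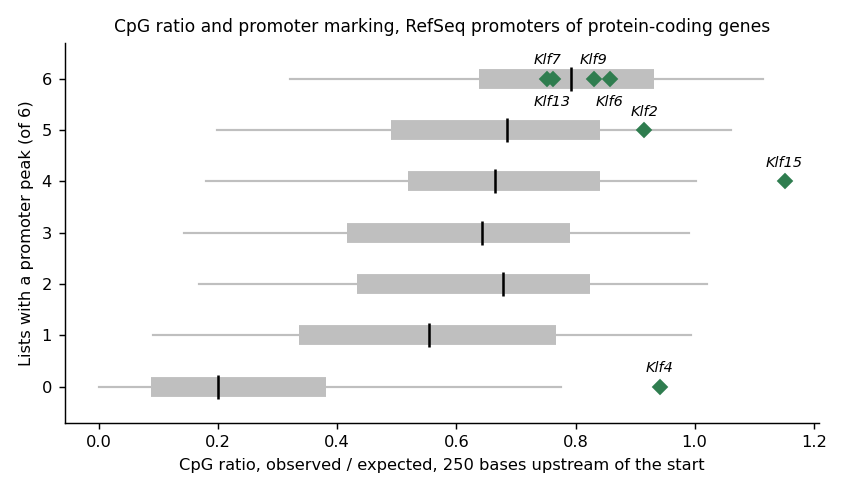
CpG ratio of the 250 bases upstream of the start (x axis) by the number of lists with a promoter peak (y axis). Grey bars span the 25th to 75th percentile of protein-coding genes, thin lines the 5th to 95th percentile, black ticks the median, and green diamonds the 7 KLF genes with a RefSeq sequence. Klf4, at 0.941 with 0 lists, lies far to the right of the median of 0.199 for unmarked genes, and Klf15, at 1.15, lies to the right of all other KLF genes.

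The promoters fell into 3 sets. Klf6, Klf7, Klf9, Klf10 and Klf13 had a promoter peak in all 6 lists, as did 39.5% of all protein-coding genes. Klf2 was marked in 5 lists and Klf15 in 4. Klf4 was marked in 0 lists, which it shared with 42.4% of all genes. By list, 7, 6 and 7 of the 8 promoters were marked in the control lists (replicates 1 to 3, an order kept for all values by list), and 6, 6 and 7 in those of 4xIOP. The difference of the means was -0.333 promoters (6.67 ± 0.577 in control, 6.33 ± 0.577 in 4xIOP, SD, n = 3). Leaving out 1 list, it ran from -0.667 to -0.167. In both lists whose own name matches the label, 7 promoters were marked.

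Among genes marked in a list, the level of a promoter can be placed by percentile. Klf6 ranked at 95.1 ± 3.59 (SD over 6 lists), Klf7 at 93.8 ± 5.85, Klf9 at 91.5 ± 5.24 and Klf10 at 84.6 ± 7.58. Klf13 followed at 52.5 ± 16.2, Klf2 at 15.7 ± 9.62 over 5 lists and Klf15 at 7.13 ± 10.5 over 4 lists. Neighbours at the top of this order did not differ beyond their spread: Klf6 was above Klf7 in 3 of 6 lists, by 1.21 ± 2.91 percentile points, and Klf9 above Klf10 in 4 of 6, by 6.90 ± 11.7. Klf7 was above Klf9 in 5 of 6 lists, by 2.36 ± 3.21. Klf10 was above Klf13 in 5 of 6 lists, by 32.0 ± 21.9, and Klf13 was above Klf2 in 5 of 5, by 35.0 ± 9.85. Klf2 and Klf15, measured together in 3 lists, were in this order in 2.

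**Figure D2:**
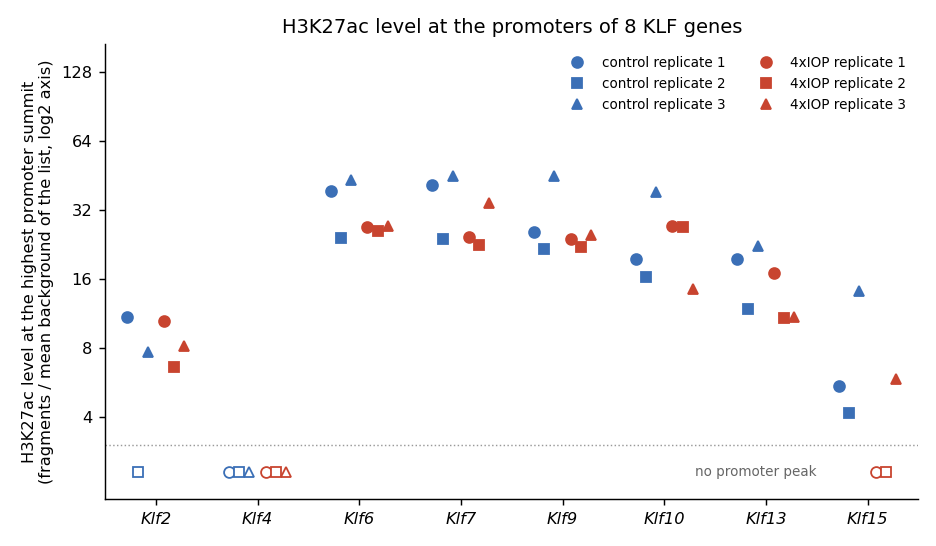
H3K27ac level at the highest promoter summit of each KLF gene (y axis, fragments divided by the mean background of the list, log2 axis), 1 point per list, blue for control and red for 4xIOP, with a shape for each replicate. Open symbols below the dotted line stand for lists with no promoter peak: all 6 for Klf4, control replicate 2 for Klf2, and 4xIOP replicates 1 and 2 for Klf15.

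Klf6 and Klf7, the members that favour axon growth, had the highest mean levels over the 6 lists, though Klf10 lay above both in 4xIOP replicates 1 and 2 and Klf9 above Klf6 in control replicate 3. The main Klf6 region (chr13:5860486-5861205) lay upstream of the TSS, with its summit at -500 bases, and its level was 38.8, 24.3 and 43.3 in the control lists, against 26.9, 25.9 and 27.3 in 4xIOP. The 4xIOP values lay close together, and control replicate 2 lay below all of them, so that the groups overlapped. The means were 35.5 ± 9.96 and 26.7 ± 0.697 (SD, n = 3), a difference of -8.77 (two-sided exact permutation test, p = 0.4, where 0.1 is the smallest p that 3 lists against 3 allow). It was -4.83 without control replicate 3 and -16.1 for replicate 3 alone. A second Klf6 region (chr13:5861534-5862458), in the first intron, was found in 5 lists at a level of 9.76 to 16.0 and was absent in 4xIOP replicate 3. The TSS itself lay between both regions and was inside a peak in 0 of 6 lists.

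Klf7 showed the same layout on a longer gene. Its upstream region (chr1:64121818-64122696), which starts beyond the annotated start sites but inside the longest annotated span of the gene, had a level of 41.1, 24.0 and 45.0 in the control lists, against 24.4, 22.6 and 34.3 in 4xIOP. Control replicates 1 and 3 were highest, 4xIOP replicate 3 was next, and the other 3 lists lay together at 22.6 to 24.4. The means of 36.7 ± 11.2 and 27.1 ± 6.30 differed by -9.56 (exact permutation p = 0.3). The difference was -5.41 without control replicate 3, -10.7 for replicate 3 alone, and -17.6 and -0.165 within the lists with longer and shorter fragments. Downstream of the TSS, a region over the first exon (chr1:64120857-64121451) was found in 5 lists at 10.1 to 22.3 and was absent in 4xIOP replicate 2. Deep in the gene, a region over a coding exon (chr1:64078918-64079371), 577 bases from the start of the antisense gene Gm13748, was called in control replicate 3 and 4xIOP replicates 1 and 2, at levels of 6.60 to 7.46.

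Of the members that hold axon growth back, Klf9 was strongly marked and Klf4 was not marked at its promoter. The Klf9 promoter region (chr19:23141208-23142707) began at the TSS and ran into the gene, covering 926 ± 353 bases downstream and 3 ± 7.35 bases upstream of it (SD over 6 lists, within 2.5 kb). Its level was 25.5, 21.6 and 45.0 in control and 23.9, 22.1 and 24.9 in 4xIOP. Control replicate 3 stood apart at 45.0 and the other 5 lists spanned 21.6 to 25.5. The group means, 30.7 ± 12.5 and 23.7 ± 1.41, differed by -7.05 (exact permutation p = 0.5), and the difference was 0.0832 without control replicate 3 and -20.0 for replicate 3 alone.

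The mark around Klf9 was broad. A region 5.3 kb upstream (chr19:23134214-23136237), longer than the promoter region itself, was called in all 6 lists at 33.8, 24.3 and 36.0 in control and 25.4, 22.6 and 20.3 in 4xIOP. These values were above those of the promoter in replicates 1 and 2 of both groups and below them in both lists of replicate 3. It lies 1026 bases from the start of the noncoding gene 2410080I02Rik, so the signal cannot be assigned to one gene. Next to it, a region 7.3 kb upstream was found in 5 lists at 14.0 to 36.5. Inside the gene, a region in the intron 21 kb from the TSS was found in the 3 control lists at 9.58, 6.21 and 9.72 and in 4xIOP replicate 1 at 9.45, and in neither of the other 4xIOP lists. The peaks of control replicates 1 and 2 did not overlap that of 4xIOP replicate 1, and the region joined them through the longer peak of control replicate 3.

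In broad domains the level and the fold gave different pictures. The fold divides the summit by a local background, and at Klf9 that local background was itself 8.94 ± 3.04 times the mean background of the list (SD over 6 lists), against 4.13 ± 0.933 at Klf6 and 4.02 ± 0.977 at Klf7. The fold of the Klf9 promoter stood at the 17.3 ± 13.2 percentile of all peaks of a list, whereas its level stood at the 91.5 percentile of marked promoters. Klf6 and Klf7 stood at 91.6 ± 1.70 and 92.1 ± 5.25 by fold.

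Klf4, which also belongs to the factors that reprogram somatic cells to pluripotency, had no promoter peak in any list. Its window of 45.3 kb held a single region (chr4:55514832-55515140), 17.4 kb downstream of the TSS, in control replicate 1 at a level of 7.30 and in 4xIOP replicate 3 at 5.46. The other 4 lists held no peak in this window. The lists contain only peaks past a threshold, so a weaker signal would not be seen.

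Klf10, the TGF-β-inducible early gene, has start sites 1.6 kb apart, and a region lay upstream of each. The region upstream of both starts (chr15:38301012-38302741) had a level of 19.6, 16.3 and 38.5 in the control lists, against 27.4, 26.9 and 14.0 in 4xIOP. Control replicate 3 was highest, 4xIOP replicates 1 and 2 came next, and 4xIOP replicate 3 was lowest. The highest promoter level of the gene averaged 24.8 ± 11.97 in control and 22.9 ± 7.33 in 4xIOP, a difference of -1.91 (exact permutation p = 0.8). The sign was not stable: the difference was 4.93 without control replicate 3, -24.1 for replicate 3 alone, 7.49 within the lists with longer fragments and -13.0 within those with shorter fragments. The intronic region between the starts (chr15:38299213-38300013) had a level of 19.2, 16.0 and 32.8 in the control lists, against 16.4, 15.1 and 14.4 in 4xIOP.

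Klf13, a repressor that works with SIN3A, had an upstream region of middle strength (chr7:63939272-63940009). Its level was 19.6, 11.8 and 22.3 in control and 16.9, 10.8 and 10.9 in 4xIOP, and 4xIOP replicate 1 lay above control replicate 2. The means of 17.9 ± 5.43 and 12.9 ± 3.48 differed by -5.02 (exact permutation p = 0.2). The difference was -2.84 without control replicate 3 and -11.4 for replicate 3 alone. By fold, the highest promoter peak stood at the percentiles 86.8, 74.4 and 61.5 in control and 68.5, 49.3 and 41.5 in 4xIOP. The groups overlapped (exact permutation p = 0.2), and these are ranks among all peaks of lists of unequal length.

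Within its long introns Klf13 had further regions, most of them in 1 list. The region at 28.1 kb from the nearest start site (chr7:63896308-63897563), 217 bases from the start of the noncoding gene Gm27252, was called in all 6 lists at 12.8, 8.87 and 17.0 in control and 10.9, 11.8 and 11.7 in 4xIOP. Downstream of the gene, a region 56.0 kb from the nearest start (chr7:63868560-63869183) was found in every list except that of 4xIOP replicate 3, at 5.32 to 12.2. Of the 10 Klf13 regions, 7 were found in a single list.

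Klf2 and Klf15 were marked weakly. At Klf2, the flow-induced factor of endothelium, the highest level was 10.9 and 7.70 in control replicates 1 and 3 and 10.4, 6.60 and 8.18 in the 4xIOP lists, with no peak in control replicate 2. At Klf15, the highest level was 5.47, 4.14 and 14.2 in control and 5.85 in 4xIOP replicate 3, with no peak in the other 4xIOP lists. The Klf15 peaks lay downstream of the first start site, in 2 separate regions (chr6:90462630-90463121 and chr6:90463608-90463946). Except in control replicate 3, the Klf15 levels stood at or below the 4.57 percentile of marked promoters. Of the 8 endothelial markers, 0 were marked in each 4xIOP list and 1 (Kdr) was marked in control replicates 1 and 3, and their part in the Klf2 values was not tested.

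**Figure D3:**
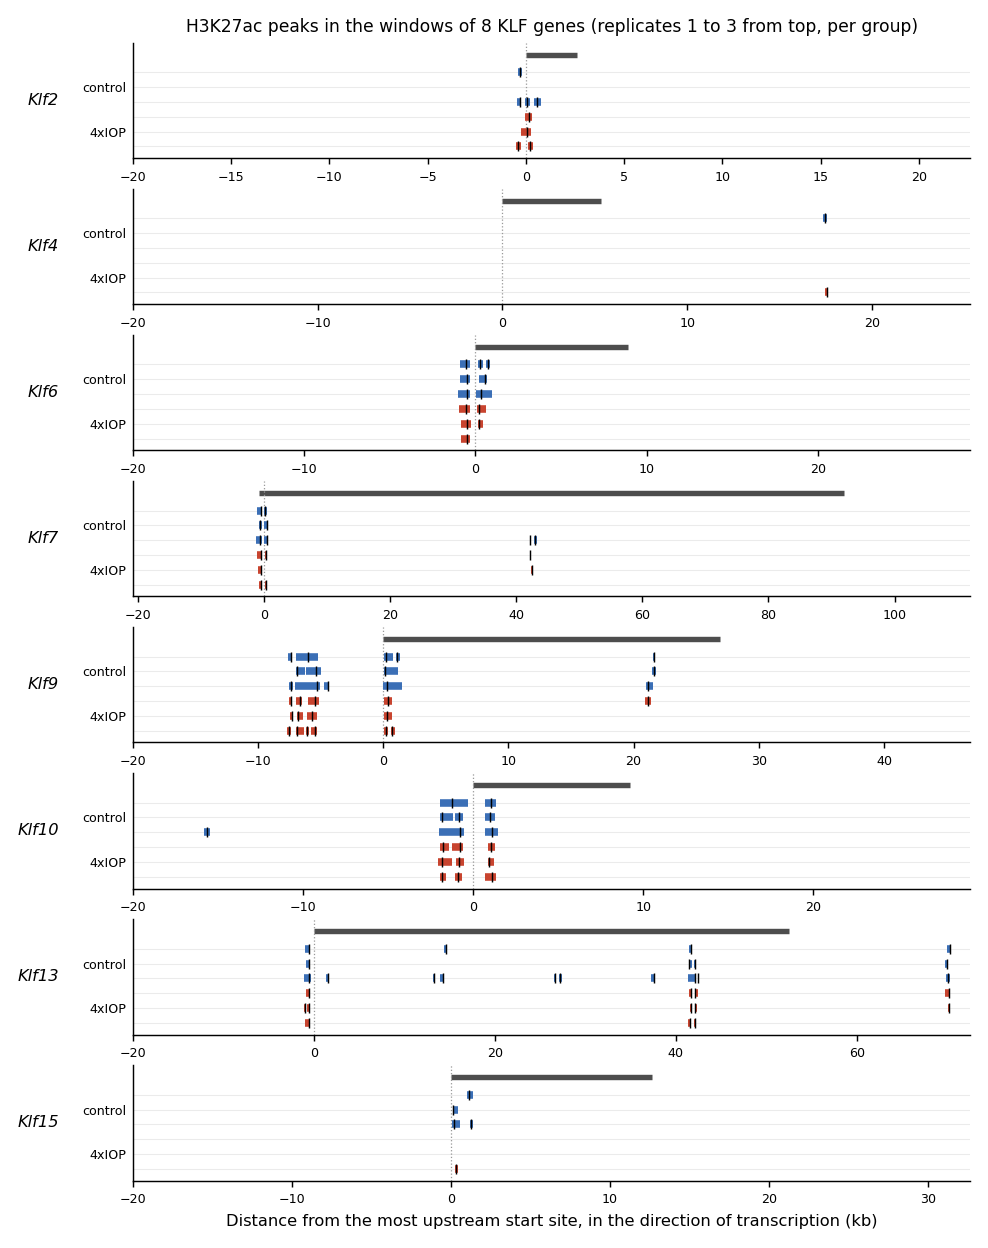
Peaks in the window of each KLF gene, drawn as bars by distance from the most upstream start site in the direction of transcription (x axis, kb), with 1 row per list (blue control, red 4xIOP, replicates 1 to 3 from the top), black ticks for summits and a grey bar for the gene. Near the start, Klf6, Klf7 and Klf10 have peaks on both sides, Klf9 and Klf15 on the downstream side and Klf4 none. Farther out, Klf9 has a group of peaks upstream in all 6 lists, and most Klf13 peaks lie downstream, in its introns and beyond its end.

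Across all 8 windows, 29 merged regions were found, 16 of them at promoters, 7 in gene bodies and 6 in flanks. In all 6 lists 8 regions were called (27.6%), against 26.4% of the 39942 regions of the whole data, and 11 were called in 1 list (37.9%, against 37.4%). Control replicate 3 alone provided 10 of these 11. No region was called in 2 or more 4xIOP lists and in no control list, and 1 region was called in 2 control lists while absent from 4xIOP, the second Klf15 region. Over the 39942 regions, 0.283% were of the first kind and 6.10% of the second.

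The length covered by peaks in a window takes all regions of a gene together. The 8 windows held 10.2, 8.78 and 16.8 kb of peaks in the control lists, against 9.01, 7.17 and 7.31 kb in 4xIOP. The means were 11.95 ± 4.30 and 7.83 ± 1.02 kb (SD, n = 3), a difference of -4.12 kb that fell to -1.68 kb without control replicate 3 and was -9.53 kb for replicate 3 alone. Over the 8 genes, the median difference was -0.448 kb, against -0.355 kb over the 15583 genes with any peak in their window, and 7 of the 8 genes were lower in 4xIOP, as were 94.3% of all genes. Without control replicate 3 these were 6 of 8 genes and 57.8% of all. The number of peaks was 19, 16 and 29 in control and 18, 17 and 19 in 4xIOP, a difference of -3.33 that turned to 0.5 without control replicate 3.

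In 3 of the 8 windows the covered length did not overlap between the groups, all lower in 4xIOP, as in 10.3% of the 15583 genes, while 0.0449% of the genes were higher without overlap. Klf9 was covered over 3.27, 3.31 and 4.72 kb in control and 2.79, 2.14 and 2.36 kb in 4xIOP. Every control value lay above every 4xIOP value, and the difference was -1.34 kb (3.77 ± 0.823 and 2.43 ± 0.331 kb, exact permutation p = 0.1, the smallest possible). It was -0.862 kb without control replicate 3, -0.811 kb within the lists with longer fragments and -1.65 kb within those with shorter fragments. Klf10 was covered over 2.20, 1.87 and 2.53 kb in control and 1.58, 1.63 and 1.35 kb in 4xIOP, a difference of -0.682 kb (2.20 ± 0.330 and 1.52 ± 0.146 kb, exact permutation p = 0.1). Klf15 was covered over 0.339, 0.304 and 0.685 kb in control and 0, 0 and 0.239 kb in 4xIOP, a difference of -0.363 kb (exact permutation p = 0.1). Without control replicate 3 the differences were -0.517 kb for Klf10 and -0.242 kb for Klf15. For replicate 3 alone they were -2.35 kb for Klf9, -1.18 kb for Klf10 and -0.446 kb for Klf15. The separation holds for the groups as labelled: by the names that the lists carry, the values of all 3 genes overlap.

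The lists themselves differed in total length, and covered 10.8, 8.92 and 20.1 Mb in control and 10.2, 10.4 and 6.66 Mb in 4xIOP. As a share of its list, the Klf9 window held 3.02, 3.71 and 2.34 bases per 10 kb of peaks in control and 2.74, 2.06 and 3.55 in 4xIOP, and the groups overlapped (difference -0.242, exact permutation p = 0.7). By this share 0 of the 8 windows had groups without overlap, against 3.72% of all genes lower and 5.92% higher in 4xIOP. Control replicate 3 covered the most in total and in each of the Klf9, Klf10 and Klf15 windows. Control replicate 2 covered less than 4xIOP replicates 1 and 2 in total and more than both in each of these windows. The part of the total length in these differences was not tested.

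**Figure D4:**
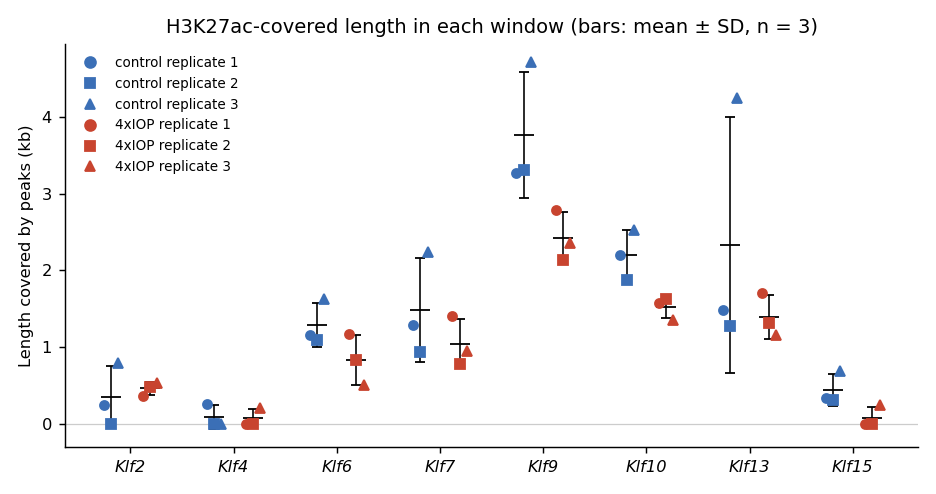
Length covered by H3K27ac peaks in the window of each KLF gene (y axis, kb), 1 point per list (blue control, red 4xIOP) with the mean and SD of 3 lists in black. For Klf9, Klf10 and Klf15 all 3 control points lie above all 4xIOP points, and control replicate 3 is the highest point of Klf2, Klf6, Klf7, Klf9, Klf10, Klf13 and Klf15.

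For the 5 genes marked in all lists, the mean promoter level was lower in 4xIOP in 5 of 5, with a median log2 ratio of -0.41. Over all 8669 genes marked in all lists the median was -0.36 and 97.4% were lower. Over all genes, control replicate 3 carried this direction: without it, 33.8% were lower in 4xIOP. Of the 5 KLF genes, 3 (Klf6, Klf7 and Klf13) stayed lower without it. These shares, and those for covered length, are for the groups as labelled and were not computed for the names that the lists carry. None of the 5 genes had levels that did not overlap between the groups, as against 1.00% of all these genes lower and 0.0346% higher in 4xIOP.

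A comparison that needs no common scale was made by ranking the highest fold of each region within its list and testing the normal scores of these ranks with limma, over the 10529 regions called in all 6 lists. At an adjusted p (Benjamini-Hochberg) under 0.05, limma called 0 regions higher and 0 lower in 4xIOP (0.00% each). At an unadjusted p under 0.05 there were 158 higher (1.50%) and 176 lower (1.67%), and 0 of the 8 KLF regions were among them. The largest KLF difference was that of the intronic Klf10 region, at -0.54 ± 0.39 (score, SE), whose fold percentile was 19.0, 29.7 and 35.4 in the control lists, against 3.10, 3.08 and 30.5 in 4xIOP. In this region 4xIOP replicates 1 and 2 lay below all controls. By score, 4xIOP replicate 3, at -0.81, lay above all controls, which spanned -1.37 to -1.08. The region upstream of both Klf10 starts went the other way, by 0.46 ± 0.31, from 19.7, 30.5 and 52.2 by percentile in the control lists to 45.4, 54.4 and 22.8 in 4xIOP.

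The other 6 KLF regions differed by about their SE or less. The Klf13 promoter differed by -0.37 ± 0.37, the Klf13 intronic region by 0.27 ± 0.38, the Klf9 upstream region by -0.23 ± 0.33 and the Klf9 promoter by 0.19 ± 0.37. Klf6 differed by 0.21 ± 0.31 and Klf7 by -0.02 ± 0.39. The adjusted p was 1.00 for each of the 8 regions in limma.

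**Figure D5:**
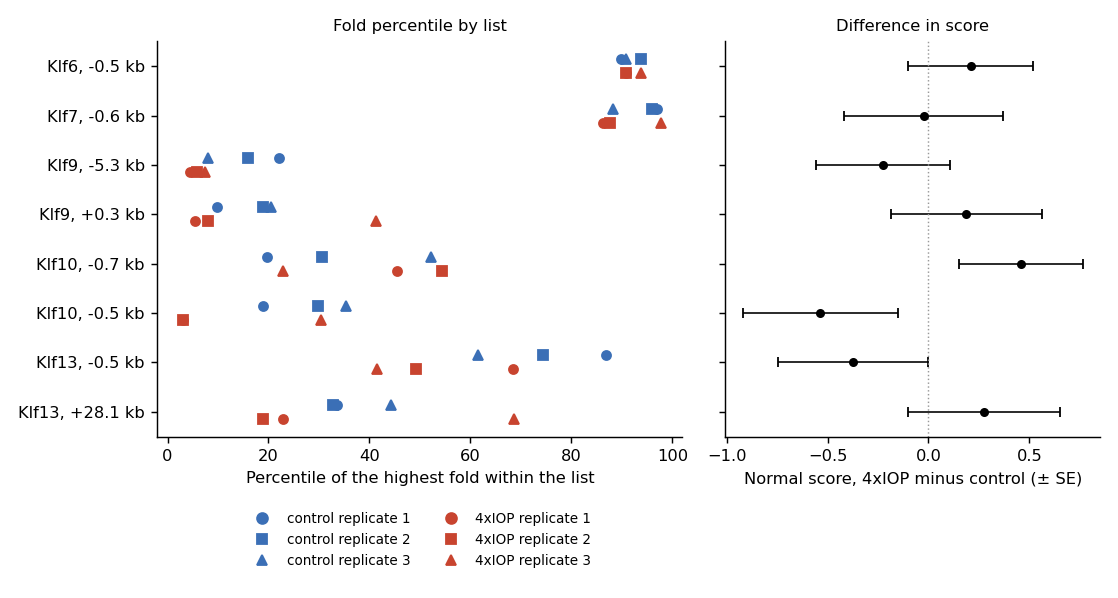
The 8 KLF regions called in all 6 lists, named by the distance of the summit from the nearest start site. Left, percentile of the highest fold among the peaks of its list (x axis), 1 point per list (blue control, red 4xIOP). Right, difference of the normal score, 4xIOP minus control, with its SE from limma (x axis). The Klf6 and Klf7 regions lie above the 86 percentile in every list, and the Klf10 regions differ in opposite directions.

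Genes with the most similar pattern were sought among promoters marked in all 6 lists, by the root mean square difference of their normal scores over the 6 lists. The closest to Klf6 were Hist1h3e (0.114) and Gm43552 (0.118), and to Klf7 Fndc3a (0.200) and Atad2b (0.204). Rcvrn (0.179) and Rnf207 (0.200) were closest to Klf9, Gucd1 and Snrpd3 (both 0.158) to Klf10, and Tkt (0.171) and Sgms1 (0.294) to Klf13.

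Of the 9 other Klf genes, 2 were marked in all 6 lists, 4 in some and 3 in none (Klf5, Klf14 and Klf17). Klf1 was marked in 5 lists, Klf12 in 3 and Klf8 in 1. Klf16 was marked in all 3 control lists, at 13.2, 8.28 and 18.2, but in none of 4xIOP, a pattern shared by 79 of 21938 genes (0.360%), whereas 0 genes (0.00%) were marked in all 4xIOP lists and no control list. Of the 9 related Sp genes, 4 were marked in all 6 lists, Sp6 in control replicate 1 alone at 10.5, and 4 in none (Sp5, Sp7, Sp8 and Sp9). Each of the 6 Klf and Sp genes marked in all lists had a lower mean level in 4xIOP, as did 97.4% of all genes, and without control replicate 3 this held for 1 of the 2 Klf genes and 2 of the 4 Sp genes.

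Among 20 genes that feed into KLF genes or act with their products, 11 were marked in all 6 lists, 7 in some and 2 in none (Tgfbr2 and Thbs1). Those marked in all included the kinase gene Map2k5 of the ERK5 pathway, the hormone receptor genes Nr3c1, Thra and Thrb, the TGF-β receptor gene Tgfbr1, the transcription factor gene Stat3 and the deacetylase genes Hdac1 and Hdac2. A single gene was marked in every control list but in none of 4xIOP: Mef2c, a transcription factor gene that acts upstream of Klf2 and Klf4, with levels of 13.2, 9.76 and 26.7 in control (named after its values were seen). Over all 21938 genes, 79 (0.360%) had this pattern. Sin3a was marked in 5 lists, at 11.4, 9.76 and 24.3 in the control lists, and at 13.9 and 8.18 in 4xIOP replicates 1 and 3. The mean level of the 11 genes marked in all lists was lower in 4xIOP for 11 of 11, and for 2 of 11 without control replicate 3, against 97.4% and 33.8% of all genes marked in all lists.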

How the data were processed

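The authors deposited 1 narrowPeak list per retina, called for each sample alone. In it they give, for each peak, the fold enrichment at the summit (a ratio of stacked fragments over the local background) and the −log10 p and −log10 q of the peak caller. The submitters' processing notes name STAR 2.7.8a, MACS2, HOMER, edgeR, bedtools 2.29.2 and the build mm10 for the series. Which of them made these lists, and the caller's settings, are not given in the sources used here. Coordinates are GRCm38, with GENCODE vM21 basic start sites.

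From the deposited fold and −log10 p, the whole number of fragments at each summit and the local background were solved, assuming Poisson p-values and a fold with 1 added to both fragments and background. In every list, 99.99% or more of peaks gave back their p to within 0.001 on the −log10 scale. As mean background served the lowest value found in a list, and the level is the summit fragments divided by it. Fragments are not corrected for duplicates here. Depth affects the counting precision, the fold and which peaks pass the caller's threshold. Peaks were merged into 39942 regions. No pair of lists shared more than 0.741% of summits over shared regions, so no list is a copy of another. Each was counted as its own sample, which the summits alone do not establish. That the retinas came from separate mice is not stated for each group, and p-values measure the spread between these lists. On the shortest peak, which reflects the fragment length, the lists fall above 200 bp (control replicate 1, 4xIOP replicates 1 and 2) or below it.

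Regions called in all 6 lists were ranked by fold within each list, turned into normal scores and tested with limma 3.58.1 (R 4.3.3), with Benjamini-Hochberg adjustment over all 10529. In simulated data for this comparison with 200 changed regions, limma recovered 81.5% of changes of 1 (log2) and 99.0% of changes of 2, with 14 and 12 false calls. How many changes of the ranked fold limma would recover in the deposited lists was not tested. Single values were tested with the two-sided exact permutation test, and sums over genes were not tested. All 8 genes are named. For each gene marked in all lists the 2 most similar genes are named, and of the other Klf and Sp genes those marked in some lists or none. The genes and lists were chosen with earlier results of these data known. Alternatives were a −log10 q of at least 5, the 16195 top peaks of each list, promoters of 1 kb, flanks of 5 kb, regions called only when mostly covered, levels in place of ranks, the fragment class as a term, a replicate block and leaving out each list.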

Additional observations from a re-analysis of the deposited data

How the results depend on the processing

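Limma called 0 regions at an adjusted p under 0.05 in either direction, and 0 of the KLF regions tested, under the 11 alternatives fitted to the regions: levels in place of ranks, the −log10 q minimum, mostly covered regions, the block, the fragment class and leaving out each of the 6 lists. Equal numbers of peaks, promoters of 1 kb and flanks of 5 kb were applied to the counts and lengths at the KLF genes only. With the replicate number as a block the unadjusted calls were 136 higher and 153 lower. The deviations of same-numbered lists correlated at -0.0208, -0.0571 and -0.146. Values near 0 can also occur where paired retinas share little deviation, so they cannot tell whether the numbers pair the samples. Which retinas came from the same mouse is not given in the sources used here. The block left every covered length unchanged in value (Klf9: -1.34 kb, smallest possible p 0.25). On the log2 level scale, where the median of all regions was -0.25, the Klf6 region turned to -0.37, the Klf9 promoter to -0.30, the upstream Klf10 region to -0.0842 and the intronic Klf13 region to -0.12. With the fragment class as a term the Klf7 region turned to 0.0600. Leaving out 1 list, the score difference ran from -0.40 to 0.18 for Klf7, from -0.30 to 0.44 for the Klf9 promoter and from -0.23 to 0.56 for the intronic Klf13 region. That of the intronic Klf10 region was -1.05 without 4xIOP replicate 3 (limma adjusted p = 0.788). Covered length changed sign on leaving out 1 list for Klf2 (-0.0583 to 0.339 kb), Klf4 (-0.0870 to 0.0697 kb) and Klf13 (-1.47 to 0.0173 kb, positive without control replicate 3). With lists cut to equal numbers of peaks, the difference in promoters marked was 0.333 and that in peaks 0.667, which was also positive (0.5) without control replicate 3. That in covered length stayed negative with equal numbers of peaks, at -2.71 kb against -4.12 kb as deposited. Chosen after seeing the data were leaving out 1 list for the covered length of single genes and for the counts of genes lower in 4xIOP, the split by fragment class and replicate 3 alone. These gave a difference in promoters marked within longer (-1) and shorter fragments (0.5), and, for replicate 3 alone, of 0 promoters, -10 peaks and -9.53 kb. The causes were not tested. When peaks needed a −log10 q of 5 or more, or regions had to be mostly covered, some KLF regions were no longer called in all lists and have no value. Peaks under the caller's threshold are not listed. A weaker mark at the promoters of Klf2, Klf4 and Klf15 would thus not be seen in the lists that hold no peak there.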

Other observations

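The names carried by the lists themselves put control replicates 1 and 2 and 4xIOP replicate 3 in the pressure group, and the other 3 lists in the control group. The samples were not regrouped, and the following are the normal scores of the fold in each list for all 8 KLF regions called in all 6 lists, with no test. The upstream Klf7 region had 1.54, 1.46 and 1.85 in the lists named for pressure, against 0.37, 0.69 and 0.75 in the others. The upstream Klf6 region had 0.84, 1.21 and 1.34, against 0.57, 0.96 and 0.95. The Klf9 promoter had -1.79, -1.43 and -0.54, against -1.73, -1.96 and -1.87, and the Klf9 region 5.3 kb upstream had -1.27, -1.54 and -1.68, against -2.29, -2.07 and -2.03. The Klf10 region upstream of both starts had -1.34, -1.06 and -1.03, against -1.03, -0.61 and -0.41, and the intronic Klf10 region had -1.37, -1.08 and -0.81, against -1.35, -2.24 and -2.37. The Klf13 promoter had 0.66, 0.18 and -0.54, against -0.80, -0.01 and -0.54, and the intronic Klf13 region had -0.96, -1.004 and 0.18, against -1.19, -1.17 and -1.35. Scores at Klf7, 5.3 kb upstream of Klf9 and in the Klf13 intron were higher, without overlap, in the lists named for pressure. Those upstream of both Klf10 starts were lower without overlap, by a narrow gap (-1.031 against -1.027). The other regions overlapped. The share of all 10529 regions without overlap by these names was not computed. In covered length, the Klf9 window had 3.27, 3.31 and 2.36 kb in the lists named for pressure, against 4.72, 2.79 and 2.14 kb in the others. The Klf10 window had 2.20, 1.87 and 1.35 kb, against 2.53, 1.58 and 1.63 kb, and the Klf15 window had 0.339, 0.304 and 0.239 kb, against 0.685, 0 and 0 kb, so that the values of these 3 genes overlap between the names.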
